A study of Mus musculus with 6 samples.

Results

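Genes of excitation-contraction coupling and calcium handling were followed in the gastrocnemius muscle of mice with and without C26 tumors. The 42 genes were chosen by name, with earlier results of these data known. They belong to the machinery that turns a muscle action potential into calcium release, and to the handling of that calcium and the response to it. All 42 were found by their Entrez gene IDs among the 13363 genes of the deposited table. C26 is a mouse colon adenocarcinoma line whose tumors cause wasting. The C26 group was 3 muscles from male Balb/c mice, bought at 6 weeks of age, that had been inoculated with C26 cells under the skin of the flank. The control group was 3 muscles from Balb/c mice of the same purchase that were assigned at random to go without C26 cells. The labels carry no genetic change or drug for either group. The labels do not say that each muscle came from a different mouse, so the p-values measure the spread between these 6 samples. A single implanted line limits the model to that tumor.

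A muscle fiber contracts when depolarization of its T-tubules moves the voltage sensor, a calcium channel built around Cacna1s, which opens the release channel Ryr1 in the facing membrane of the sarcoplasmic reticulum. Both membranes are held together at the triad by junctophilins and other scaffold proteins, calcium is stored inside the reticulum on calsequestrin, and SERCA pumps return it after each twitch. Released calcium also acts as a signal, through calmodulin, the CaMKII kinases and the phosphatase calcineurin. Fast fibers, which make up most of the mouse gastrocnemius, carry large amounts of this machinery together with the soluble buffer parvalbumin.

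Levels are given as FPKM, the fragments of a transcript scaled to its length and to the reads mapped, as the authors deposited them, so they can be set against each other between genes. Read counts were not analysed here and the depth behind each value is unknown. Fold changes are from limma on log2(TPM + 1), where TPM is the FPKM of a muscle rescaled to a sum of 1000000 and divided by a TMM factor of 0.903 to 1.08. The added 1 makes changes of low genes look smaller. A gene is called higher or lower when its p, after Benjamini-Hochberg correction across the 13363 genes, was under 0.05, and groups are said not to overlap when every scaled value of one lay above every value of the other. Muscle markers were high in both groups, and of 12 such markers 2 were called lower and 1, Des, higher. Ckm had 14314 to 18555 FPKM in C26 muscles, against 25124 to 26160 in control muscles. It was not called (log2 fold change -0.40, limma adjusted p = 0.119). Mb varied widely, at 74.0 to 4906 FPKM in C26 muscles, against 578 to 1569 in control muscles. Of the 8 fast fiber markers, 3 were lower, 0 were higher and 5 were not called in C26 muscles. Their median log2 fold change was -0.30. Their summed level was 53782 to 77313 FPKM against 118797 to 135580 in control muscles. Sums of FPKM are not scaled between muscles, and the FPKM of all genes summed to less in each C26 muscle than in each control. The gap between such sums is therefore not a fitted fold change. The fast myosin Myh4 had 8751 to 10905 FPKM in C26 muscles, against 8672 to 10809 in control muscles. Slow fiber markers summed to 81.1 to 483 FPKM against 175 to 492, with 0 of 7 called. Among the cardiac markers Myh6 stayed under 1 FPKM, Tnni3 reached 1.28 FPKM, and Tnnt2 had 0.77 to 3.03 FPKM against 1.81 to 3.48. Nppa and Ryr2 are not listed, but every listed gene is above 0 in each muscle, so this does not show their absence.

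Calcium handling genes were mostly lower in C26 muscles when they differed at all. Of the 42 genes, 14 were called lower, 33.3% of them, against 14.5% of all genes, and 3 were called higher, or 7.14%, against 19.4% of all genes. The difference exceeded 4-fold for 10 of the lower genes, 23.8% of the 42 against 1.73% of all genes, and for 1 of the higher genes against 1.77% of all genes. The median log2 fold change of the 42 genes was -0.30 beside -0.05 for all genes. Because the genes were chosen with earlier results of these data known, their shares beside those of all genes only describe the list. The study had already named Plcd4 and Camk2a among its downregulated genes. The groups did not overlap for 18 genes that were lower and 6 that were higher, where 26.5% and 27.0% of all genes parted in these directions, and 53.5% in either. Because these are whole muscles, fewer fibers of a kind and less RNA per fiber cannot be told apart. The number called lower was 8 without C26 replicate 1, 9 without control replicate 1 and 21 without C26 replicate 3. The number called higher was 5 without control replicate 2. The number lower by over 4-fold was 6 without C26 replicate 1 and 6 without C26 replicate 2. Scaled without the 20 most abundant genes, the median of all genes moved by -0.19, and 1544 genes were higher and 3212 lower in place of 2590 and 1931. Under that scaling 3 of the 42 genes were higher and 19 lower, and all 17 genes called under the TMM scaling were called again.

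**Figure D1:**
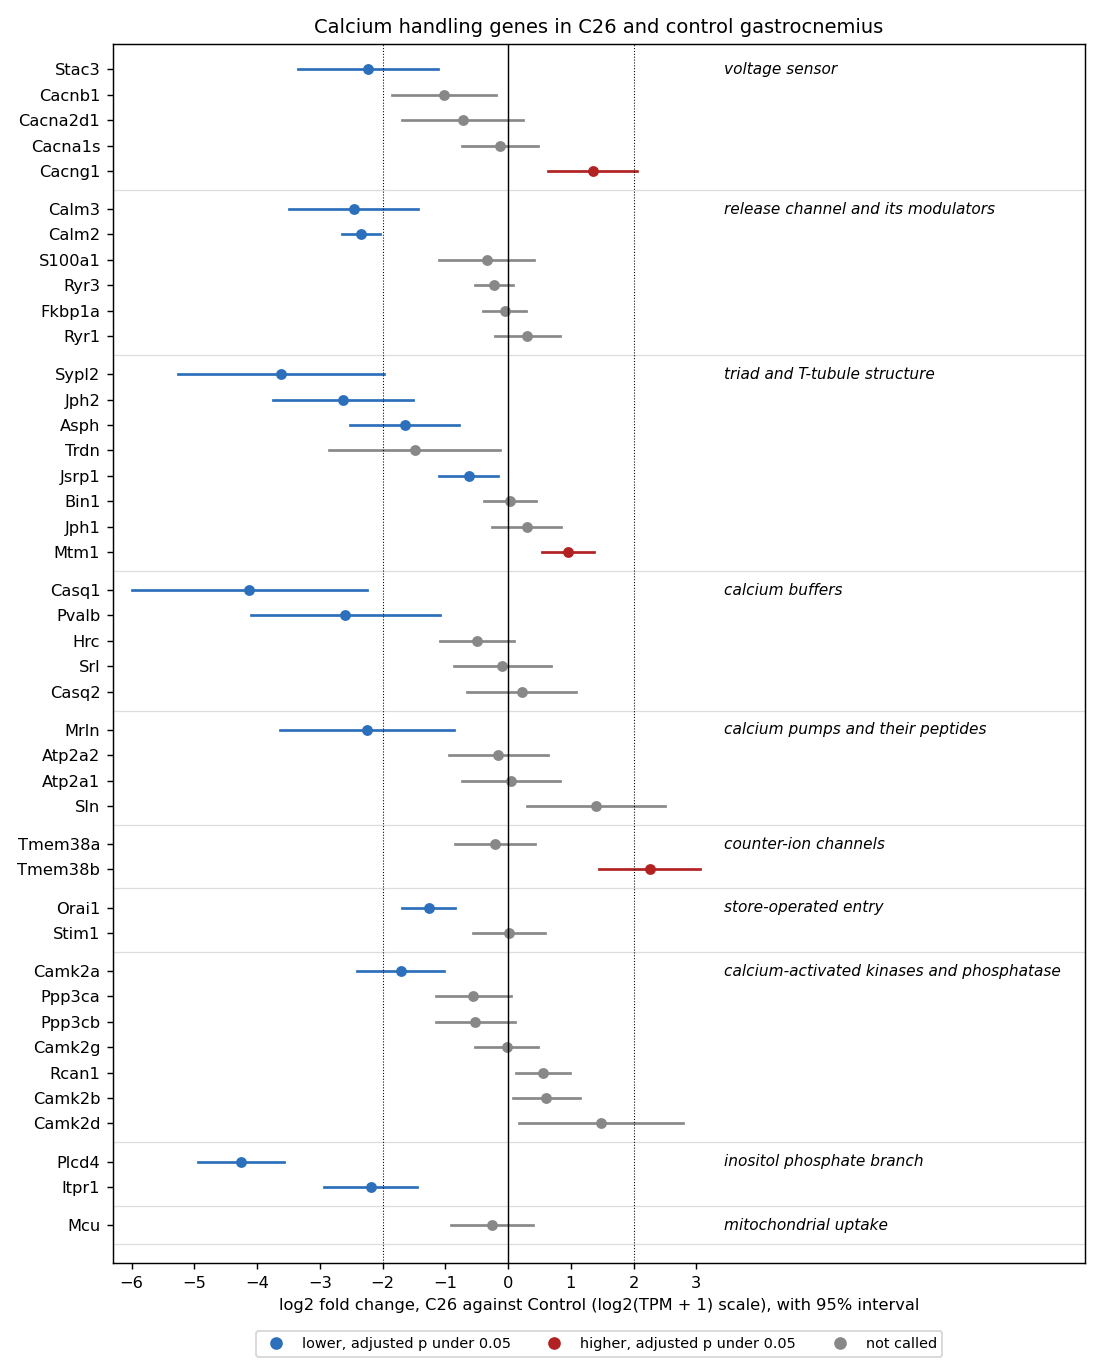
Log2 fold change of each of the 42 genes between 3 C26 and 3 control muscles, grouped by role, with its 95% interval from limma as a bar and dotted lines at 4-fold. Genes called lower (14, blue) and higher (3, red) occur beside uncalled genes (grey) in most roles, and Plcd4 and Casq1 lie farthest to the left.

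C26 replicate 3 stood closer to the controls than the other C26 muscles did. Its median difference from the control mean over the 42 genes was -0.02 on the log2 scale, against -0.44 for C26 replicate 1 and -0.84 for C26 replicate 2. It was the C26 muscle nearest to the control mean for 27 of the 42 genes, or 64.3%, and for 52.5% of all genes. Among the 14 lower genes it was the nearest for 13, the exception being Calm2, and among all 1931 genes called lower for 59.8%.

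The voltage sensor is a complex of the pore subunit Cacna1s with the subunits Cacnb1, Cacna2d1 and Cacng1, and needs the adaptor Stac3 for its coupling to the release channel. Its 5 genes went different ways, with Stac3 lower, Cacng1 higher and the pore gene not called. Stac3 (gene ID 237611) had 30.1, 24.3 and 77.8 FPKM in the C26 muscles, against 219, 233 and 188 in the control muscles. Each C26 muscle was far below each control, C26 replicate 3 the least so. The log2 fold change was -2.23 (SE 0.46, limma adjusted p = 0.0146), a level 4.70-fold higher in control muscles. Stac3 was not called without C26 replicate 1 or without control replicate 1, where the adjusted p from limma was 0.0557 to 0.0601.

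Cacng1 (gene ID 12299), the gamma subunit, which is known to restrain the channel, had 1350.1, 1237 and 593 FPKM in the C26 muscles. In the controls it had 477, 449 and 439, so that its groups did not overlap and the controls lay close together. It was higher by a log2 fold change of 1.35 (SE 0.30, limma adjusted p = 0.0171), or 2.54-fold. The call was lost without C26 replicate 1, C26 replicate 2 or control replicate 1, with log2 fold changes of 1.14 to 1.36 and an adjusted p from limma of 0.0601 to 0.0618, and with quantile normalization.

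Cacna1s itself had 171, 140 and 216 FPKM in C26 muscles, against 205, 255 and 204 in control muscles, which overlap. Its log2 fold change of -0.13 had a 95% interval from -0.73 to 0.47, so a change of the size seen for Stac3 lay outside the interval. The beta subunit Cacnb1 had 24.4 to 58.6 FPKM against 85.0 to 96.7, without overlap, but missed the threshold (log2 fold change -1.02, limma adjusted p = 0.0629). Cacna2d1, the alpha-2/delta subunit, had 16.2 to 46.0 FPKM against 47.0 to 55.3 and overlapped once scaled, with a log2 fold change of -0.73 (limma adjusted p = 0.199). Without C26 replicate 3, both Cacnb1 (-1.29, limma adjusted p = 0.0131) and Cacna2d1 (-1.08, limma adjusted p = 0.0188) were called lower. Cacnb1 was also called lower with quantile normalization, with FPKM as deposited, without TMM and with the scaling without the 20 most abundant genes, at -1.40 to -0.99.

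Of the release channel and its modulators, 6 genes in all, Calm2 and Calm3 were called lower and the others were not called. Ryr1, the channel that opens to the voltage sensor, had 380.4, 323 and 327 FPKM in C26 muscles, against 297, 391 and 285 in control muscles. These values overlap, and the log2 fold change of 0.31 had a 95% interval from -0.20 to 0.82 (limma adjusted p = 0.291). Ryr3, an isoform of early muscle, was barely present, at 0.02 to 0.04 FPKM against 0.09 to 0.20. With such values the table's 2 decimals limit the precision, and Ryr3 was called lower only with the pseudocount of 0.1. The immunophilin Fkbp1a, which binds Ryr1 and steadies its closed state, had 74.8 to 95.7 FPKM against 96.0 to 108 (log2 fold change -0.06, limma adjusted p = 0.779), and was called only with quantile normalization, at -0.46. S100a1, a small calcium sensor that promotes opening, had 129 to 270.3 FPKM against 248 to 268, and its log2 fold change of -0.34 (limma adjusted p = 0.426) became -0.61 (limma adjusted p = 0.0376) without C26 replicate 3.

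Calmodulin is encoded by several genes with the same protein product, and both that are among the 42 fell. Calm2 (gene ID 12314) had 32.5, 35.4 and 27.7 FPKM in the C26 muscles, against 193, 175 and 203 in the controls. Its 3 C26 values were the closest together, relative to their mean, among the lower genes above 4-fold, and C26 replicate 3 was the lowest of them in FPKM. The log2 fold change was -2.34 (SE 0.13, limma adjusted p = 0.000822). Calm3 (gene ID 12315) had 19.3, 23.8 and 57.5 FPKM in the C26 muscles, against 190.3, 207 and 184 in the controls, again without overlap. It was lower by a log2 fold change of -2.46 (SE 0.43, limma adjusted p = 0.00911). Together the pair summed to 51.8 to 85.1 FPKM in C26 muscles, against 382 to 387 in control muscles. Reads of 50 bases can fit more than one calmodulin gene, and how RSEM shared them out is uncertain.

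Of the 8 triad and T-tubule genes, 4 were lower and 1 was higher. Sypl2 (gene ID 17306), or mitsugumin 29, a synaptophysin-like protein of the triad membrane, had 7.11, 4.77 and 32.3 FPKM in the C26 muscles. Its controls had 182, 165 and 128 FPKM, so the lowest control was still well above C26 replicate 3. The log2 fold change was -3.62 (SE 0.69, limma adjusted p = 0.0116), or 12.3-fold. Without C26 replicate 1 it was -3.35 and missed the threshold (limma adjusted p = 0.0505).

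Junctophilins span the gap between T-tubule and reticulum, and the pair expressed in skeletal muscle differed. Jph2 (gene ID 59091) had 17.8, 17.9 and 51.6 FPKM in the C26 muscles, against 199.9, 215 and 154 in the controls, with a log2 fold change of -2.63 (SE 0.47, limma adjusted p = 0.00961). Jph1 had 72.2, 73.9 and 63.9 FPKM in the C26 muscles, against 70.6, 79.5 and 51.1 in the controls. The Jph1 groups overlapped, and its log2 fold change of 0.30 had a 95% interval from -0.25 to 0.85 (limma adjusted p = 0.339). Jph2 therefore made up 19.8%, 19.5% and 44.7% of the summed junctophilin FPKM in the C26 muscles, against 73.9%, 73.0% and 75.1% in the controls. That is 28.0% ± 14.4 against 74.0% ± 1.04 (SD, n = 3 per group), with p = 0.1 in a two-sided exact permutation test.

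Shares of this kind compare genes within one muscle and are not moved by scaling between muscles. With 3 muscles in each group, 0.1 is the smallest p the exact permutation test can give, so no share could pass 0.05. For the 11 shares computed, a raw p of 0.1 corresponded to 0.157 after Benjamini-Hochberg adjustment (exact permutation tests).

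Triadin (Trdn) and junctin (made from Asph) tie calsequestrin to the release channel. Asph (gene ID 65973) had 20.6, 26.3 and 49.5 FPKM in the C26 muscles, against 123, 115 and 95.3 in the controls, which did not overlap. Its log2 fold change was -1.65 (SE 0.36, limma adjusted p = 0.0168), but the adjusted p from limma was 0.0514 to 0.0644 without C26 replicate 1, C26 replicate 2, control replicate 1 or control replicate 2. Asph also encodes an enzyme that hydroxylates aspartate and asparagine, and the gene-level values do not part the products. Trdn had 86.7, 44.5 and 220.3 FPKM in the C26 muscles, against 305, 289 and 339 in the controls. Its groups did not overlap, yet the C26 muscles were so spread that it was not called (log2 fold change -1.49, SE 0.57, limma adjusted p = 0.0843). Without C26 replicate 3 it was called, at -2.05 (limma adjusted p = 0.00633), and so it was with the scaling that left out the most abundant genes.

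Jsrp1 (gene ID 71912), or JP-45, which links the voltage sensor with calsequestrin, had 249, 251 and 345 FPKM in the C26 muscles, against 511, 450.2 and 546 in the controls. The groups did not overlap and the log2 fold change was small, at -0.63 (SE 0.19, limma adjusted p = 0.0464). This call was lost without any one muscle other than C26 replicate 3, with an adjusted p from limma of 0.0852 to 0.151, and also with a pseudocount of 0.1, the replicate number as a block or an intensity trend. Bin1, or amphiphysin 2, which shapes T-tubules, had 499, 539 and 363 FPKM in C26 muscles, against 506 to 540.0 in control muscles (log2 fold change 0.03, 95% interval -0.39 to 0.44, limma adjusted p = 0.918). Mtm1 (gene ID 17772), the lipid phosphatase myotubularin that is lost in X-linked myopathy, was the gene of this group that rose. It had 6.59, 7.40 and 4.59 FPKM in the C26 muscles, against 3.53, 3.21 and 3.27 in the controls, with each C26 muscle above each control. It rose by a log2 fold change of 0.95 (SE 0.17, limma adjusted p = 0.00989), and it was called whichever muscle was left out.

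Of the 5 calcium buffer genes 2 were lower, Casq1 and Pvalb, and 0 were higher. Casq1 (gene ID 12372), the main calcium store of the fast fiber reticulum, had 102, 31.1 and 302 FPKM in the C26 muscles, against 2168, 1978 and 1915 in the controls. The controls lay within a narrow band while the C26 muscles differed among themselves by a wide margin. It was lower by a log2 fold change of -4.13 (SE 0.78, 95% interval -6.0 to -2.26, limma adjusted p = 0.0115), or 17.5-fold, and was called whichever muscle was left out, at -4.89 to -3.27. Casq2, the cardiac and slow fiber form, had 2.29, 2.98 and 5.50 FPKM in C26 muscles, against 3.68, 4.08 and 2.34 in control muscles, which overlap (log2 fold change 0.21, limma adjusted p = 0.661). As a share of both forms, Casq2 was 2.2%, 8.75% and 1.79% in the C26 muscles, against 0.169%, 0.206% and 0.122% in the controls (two-sided exact permutation test, p = 0.1, the smallest possible). Casq1 nevertheless remained the more abundant form in all 6 muscles.

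Parvalbumin, the soluble buffer that speeds relaxation of fast fibers, is one of the most abundant transcripts of the muscle. Pvalb (gene ID 19293) ranked 10 of 13363 genes by mean control FPKM. It had 2784, 1029 and 6166 FPKM in the C26 muscles, against 19508, 15271 and 20450.4 in the controls, without overlap. The log2 fold change was -2.59 (SE 0.63, limma adjusted p = 0.0231). Without C26 replicate 1 or without any single control the adjusted p from limma was 0.0514 to 0.0769, with log2 fold changes of -2.65 to -2.56. Of the fast fiber markers, Myl1 (-1.69), Mylpf (-1.95) and Tnnc2 (-1.38) were also lower, while Myh4 (0.23) and Myh1 (2.13) were not called, and their part in the Pvalb and Casq1 values was not tested. Myh1 had 2555 FPKM in C26 replicate 3, against 299 and 254 in the other C26 muscles and 92.8 to 331 in the controls. Within the reticulum, the histidine-rich protein Hrc had 197 to 319.9 FPKM against 379.5 to 432 (log2 fold change -0.50, limma adjusted p = 0.160), and was called at -0.65 without C26 replicate 3 (limma adjusted p = 0.0383), and at -0.89 to -0.71 with FPKM as deposited, quantile normalization and the scaling without the 20 most abundant genes. Sarcalumenin (Srl) had 173 to 315 FPKM against 219.8 to 312, a log2 fold change of -0.09 with a 95% interval from -0.86 to 0.68.

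**Figure D2:**
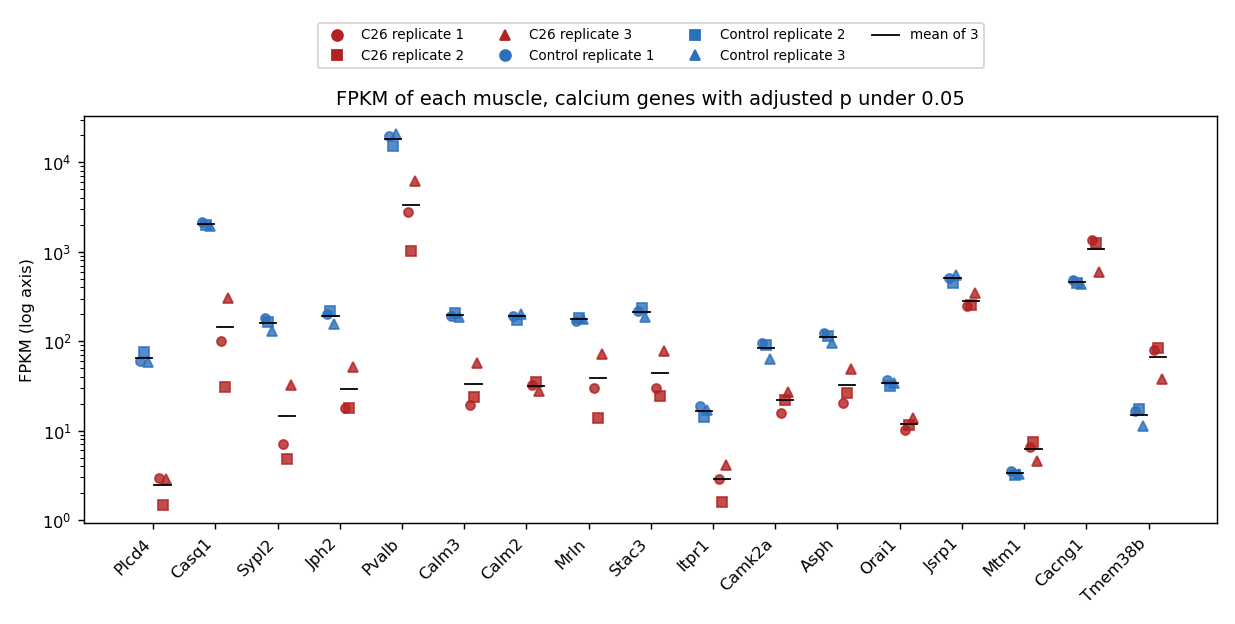
FPKM (log axis) of each C26 muscle (red) and control muscle (blue) for the 17 genes called at an adjusted p under 0.05, with the mean of 3 as a black line and symbols for the replicate. The groups are apart for each gene, the controls lie closer together than the C26 muscles for most of them, and C26 replicate 3 (red triangle) is usually the C26 muscle nearest to the controls.

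Promoter sequences are shown for those lower genes whose window held a searched motif, since several of them share the same letters. RefSeq windows of the 250 bases before the transcription start (GRCm38.p6) were matched by gene ID for 25 of the 42 genes, with 32 windows in all, and for 8 of the 14 lower genes. They were searched on both strands for the E-box CAGCTG, which myogenic factors bind, the FOXO motif GTAAACA, the NFAT core TGGAAA and the MEF2 consensus. The E-box, which reads the same on both strands, was present for 4 of the 8 lower genes and for 4 of the 17 other genes with a window. Of all 27025 genes with a RefSeq window, in the deposited table or not, 14.7% had it. The windows of the lower genes with a match follow, each 5′ to 3′ on the strand of its gene and ending at the base before the start. Capitals mark the E-box in the first 4 and the MEF2 match in Pvalb, the only one among the lower genes.
Casq1, chr1:172219896-172220145, minus strand: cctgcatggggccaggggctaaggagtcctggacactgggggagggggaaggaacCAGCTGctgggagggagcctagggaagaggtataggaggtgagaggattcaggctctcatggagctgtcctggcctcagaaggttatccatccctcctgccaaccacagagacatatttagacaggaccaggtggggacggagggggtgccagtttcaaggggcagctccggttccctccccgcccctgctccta
Sypl2, chr3:108226600-108226849, minus strand: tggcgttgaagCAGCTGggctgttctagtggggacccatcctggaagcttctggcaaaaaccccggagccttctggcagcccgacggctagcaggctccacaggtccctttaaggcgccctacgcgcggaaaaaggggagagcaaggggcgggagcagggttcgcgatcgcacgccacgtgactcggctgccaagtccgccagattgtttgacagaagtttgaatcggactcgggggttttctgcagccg
Jph2, chr2:163397974-163398223, minus strand: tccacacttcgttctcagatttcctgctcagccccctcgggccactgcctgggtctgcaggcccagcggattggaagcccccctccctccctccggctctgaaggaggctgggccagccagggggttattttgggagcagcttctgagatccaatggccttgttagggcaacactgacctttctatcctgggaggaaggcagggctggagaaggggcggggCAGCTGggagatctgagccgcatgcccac
Orai1, chr5:123014824-123015073, plus strand: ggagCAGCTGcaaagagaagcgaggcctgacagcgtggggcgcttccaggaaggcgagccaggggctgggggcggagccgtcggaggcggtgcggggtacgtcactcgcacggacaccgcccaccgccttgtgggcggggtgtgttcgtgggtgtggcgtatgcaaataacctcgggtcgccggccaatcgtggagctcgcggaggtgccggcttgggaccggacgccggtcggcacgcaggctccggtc
Pvalb, chr15:78206401-78206650, minus strand: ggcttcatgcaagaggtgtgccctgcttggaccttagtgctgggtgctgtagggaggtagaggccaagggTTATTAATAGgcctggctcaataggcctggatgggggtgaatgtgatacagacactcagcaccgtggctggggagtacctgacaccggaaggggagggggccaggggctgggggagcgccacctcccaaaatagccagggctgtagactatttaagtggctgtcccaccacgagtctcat

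The E-box began 195 bases before the start in Casq1, 239 in Sypl2, 29 in Jph2 and 246 in Orai1. Another Jph2 window overlaps the one shown and holds the same E-box, and Pvalb has another window without a match. The genes with an E-box that were not called were Cacna1s, Fkbp1a, Hrc and Atp2a1. By gene, MEF2 was matched for 1 of the 8 lower genes, 1 of the 17 others and 3.42% of the 27025 genes with a RefSeq window. The NFAT core was matched for 0 of 8, 3 of 17 and 20.9%, and the FOXO motif for 0 of 8, 0 of 17 and 3.54%. A match is a run of letters in these windows, and binding was not measured.

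Neither calcium pump was called, while 1 of the peptides that regulate them was lower. Atp2a1, the SERCA1 pump of fast fibers, had 7477, 5139 and 10411 FPKM in the C26 muscles, against 8021, 9775 and 7237 in the controls. It ranked 14 among all genes in the controls, and its log2 fold change of 0.05 had a 95% interval from -0.73 to 0.83 (limma adjusted p = 0.917). That interval leaves out a fall of the size seen for Casq1 or Pvalb, but the value depends on the scaling, from -0.26 without the 20 most abundant genes to 0.90 with quantile normalization, where it was called. Atp2a2, the SERCA2 pump of slow fibers, had 7.05 to 16.1 FPKM against 12.02 to 17.8 (log2 fold change -0.15, limma adjusted p = 0.731). Its share of both pumps was 0.155% ± 0.0177 in C26 muscles and 0.184% ± 0.0537 in control muscles (SD, n = 3 per group, exact permutation test, p = 0.4).

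Myoregulin and sarcolipin are small membrane peptides that bind SERCA and slow it. Mrln (gene ID 69563) had 29.8, 13.9 and 72.4 FPKM in the C26 muscles, against 168, 179.6 and 178 in the controls, a gap well beyond the spread of the controls. Its log2 fold change was -2.25 (SE 0.58, limma adjusted p = 0.0272), and it missed the threshold without C26 replicate 1 or any single control (limma adjusted p = 0.0545 to 0.0891). Sarcolipin (Sln) had 5.74, 10.1 and 5.19 FPKM in the C26 muscles, against 5.61, 1.07 and 2.45 in the controls. Once scaled these groups did not overlap, although they did in FPKM, and the log2 fold change of 1.40 just missed the threshold (SE 0.46, limma adjusted p = 0.0550). Without control replicate 1, the highest control, it was 1.87 (limma adjusted p = 0.0328), and it was also called among genes with a mean TPM of at least 1. Sln thus had at most 10.1 FPKM, while Mrln had up to 179.6 FPKM.

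The counter-ion channels balance the charge that leaves the reticulum with calcium, and here the minor form rose. Tmem38b (gene ID 52076), or TRIC-B, had 79.4, 84.1 and 37.7 FPKM in the C26 muscles, against 16.4, 17.4 and 11.4 in the controls. Every C26 muscle was above every control, C26 replicate 3 the least. The log2 fold change was 2.26 (SE 0.34, limma adjusted p = 0.00645), or 4.78-fold, and the fits that left out 1 muscle ranged from 2.03 to 2.67. It was the 1 gene of the 42 that rose by over 4-fold. With quantile normalization or the scaling without the most abundant genes it stayed called but lay under 4-fold. Tmem38a, or TRIC-A, the form typical of muscle, had 478, 352 and 617 FPKM in the C26 muscles, against 673, 662 and 564 in the controls, which overlap (log2 fold change -0.21, 95% interval -0.85 to 0.43). Tmem38b made up 14.3%, 19.3% and 5.76% of both channels in the C26 muscles, against 2.38%, 2.55% and 1.98% in the controls (two-sided exact permutation test, p = 0.1, the smallest possible).

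In store-operated entry, Stim1 senses an empty reticulum and opens Orai1 in the surface membrane. Orai1 (gene ID 109305) had 10.1, 11.5 and 14.0 FPKM in the C26 muscles, against 36.5, 31.3 and 33.8 in the controls. The groups were clearly apart, with little spread within either. It fell by 1.26 on the log2 scale (SE 0.18, limma adjusted p = 0.00567), a call that held with each muscle left out. Stim1 had 29.6, 32.2 and 40.4 FPKM in the C26 muscles, against 41.1, 44.8 and 32.0 in the controls, with overlap. Its log2 fold change of 0.01 had a 95% interval from -0.56 to 0.58.

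The CaMKII kinases decode calcium through calmodulin, and of their 4 isoforms Camk2a was called, as lower. Camk2a (gene ID 12322) had 15.8, 22.3 and 27.2 FPKM in the C26 muscles, against 95.7, 91.2 and 63.7 in the controls, without overlap. Its log2 fold change was -1.71 (SE 0.29, limma adjusted p = 0.00849). Camk2d had 23.9, 47.7 and 8.26 FPKM in the C26 muscles, against 7.77, 8.57 and 8.99 in the controls, so that C26 replicate 3 was at the level of the controls. Camk2d was not called with all muscles (log2 fold change 1.48, SE 0.54, limma adjusted p = 0.0762) and was called without C26 replicate 3 (2.18, limma adjusted p = 0.00427). Camk2b had 25.1 to 32.5 FPKM against 18.2 to 26.5, a log2 fold change of 0.61 (limma adjusted p = 0.0763), and was called without control replicate 2 at 0.81 (limma adjusted p = 0.0338). Camk2g had 34.0 to 46.4 FPKM against 42.7 to 51.5 (log2 fold change -0.02, 95% interval -0.53 to 0.48).

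As shares of the summed CaMKII FPKM, Camk2a was 14.8%, 16.3% and 24.6% in the C26 muscles, against 54.9%, 51.3% and 47.7% in the controls. It was thus the leading isoform in every control and in none of the C26 muscles. Camk2b was 24.4% ± 1.43 against 13.5% ± 1.39, and Camk2d was 21.6% ± 13.8 against 5.33% ± 1.22 (SD, n = 3 per group). For these isoforms the groups did not overlap, with p = 0.1 each in two-sided exact permutation tests, the smallest possible. Camk2g was 35.4% ± 9.22 against 29.8% ± 1.85 (SD, n = 3 per group, exact permutation test, p = 0.4). The sum of the 4 isoforms was 107, 136 and 111 FPKM in the C26 muscles, against 174, 178 and 134 in the controls.

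**Figure D3:**
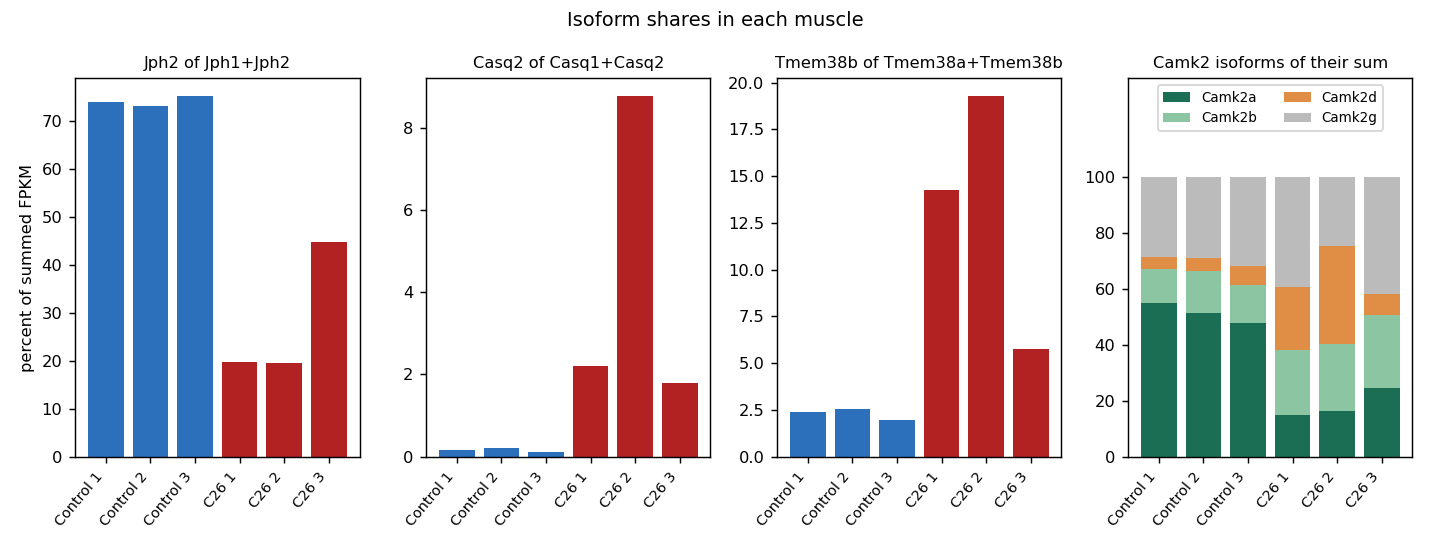
Percent of the summed FPKM of a gene pair or family taken by one isoform in each control (blue) and C26 (red) muscle, each panel with its own axis from 0, and the 4 CaMKII isoforms as stacked bars. Jph2 was 73.0% to 75.1% of both junctophilins in control and 19.5% to 44.7% in C26 muscles, Tmem38b and Casq2 had larger shares in each C26 muscle than in any control, and Camk2a held a smaller part of the CaMKII sum.

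For calcineurin, the calcium-activated phosphatase, the catalytic subunits Ppp3ca and Ppp3cb and the inhibitor Rcan1 were not called. Ppp3ca (23.0 to 40.9 FPKM against 51.0 to 55.2) and Ppp3cb (42.4 to 71.7 against 80.1 to 94.5) had log2 fold changes of -0.55 and -0.53 (limma adjusted p = 0.129 and 0.162). Without C26 replicate 3 both were called lower, at -0.70 each (limma adjusted p = 0.0378 and 0.0298), as they were with FPKM as deposited, quantile normalization and the scaling without the 20 most abundant genes. Ppp3cc, a further catalytic subunit among the other calcium handling genes, named here after its values were seen, was called higher. It had 18.8 to 27.8 FPKM against 11.6 to 21.0 and a log2 fold change of 0.90 (SE 0.24, limma adjusted p = 0.0288). That call was lost without C26 replicate 1, C26 replicate 2, control replicate 1 or control replicate 2 (limma adjusted p = 0.0772 to 0.0996) and in 4 of the 8 other alternatives, which were quantile normalization, FPKM as deposited, the scaling without the 20 most abundant genes and the replicate block. The Ppp3cb share of the pair was 62.9% ± 2.51 against 62.4% ± 2.60 (SD, n = 3 per group, exact permutation test, p = 0.8). Rcan1 had 22.5, 28.0 and 25.1 FPKM in the C26 muscles, against 19.7, 22.0 and 17.5 in the controls. Although these values did not overlap, the log2 fold change of 0.56 missed the threshold (SE 0.18, limma adjusted p = 0.0562), and it was called at 0.70 without control replicate 2 (limma adjusted p = 0.0403) and at 0.59 with TPM without TMM.

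Both genes of the inositol phosphate branch fell. Plcd4 (gene ID 18802), a phospholipase C that is itself activated by calcium, had 2.96, 1.48 and 2.87 FPKM in the C26 muscles, against 60.0, 75.4 and 58.3 in the controls. Its log2 fold change was -4.26, and it was called whichever muscle was left out. Itpr1 (gene ID 16438), a receptor that releases calcium in response to inositol trisphosphate, had 2.88, 1.58 and 4.11 FPKM in the C26 muscles, against 18.9, 14.4 and 16.9 in the controls. It was lower by a log2 fold change of -2.19 (SE 0.31, limma adjusted p = 0.00583), without overlap. Mcu, the pore of the mitochondrial calcium uniporter, had 5.70 to 10.1 FPKM against 9.52 to 12.3, with a log2 fold change of -0.26 (95% interval -0.92 to 0.40, limma adjusted p = 0.481).

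**Figure D4:**
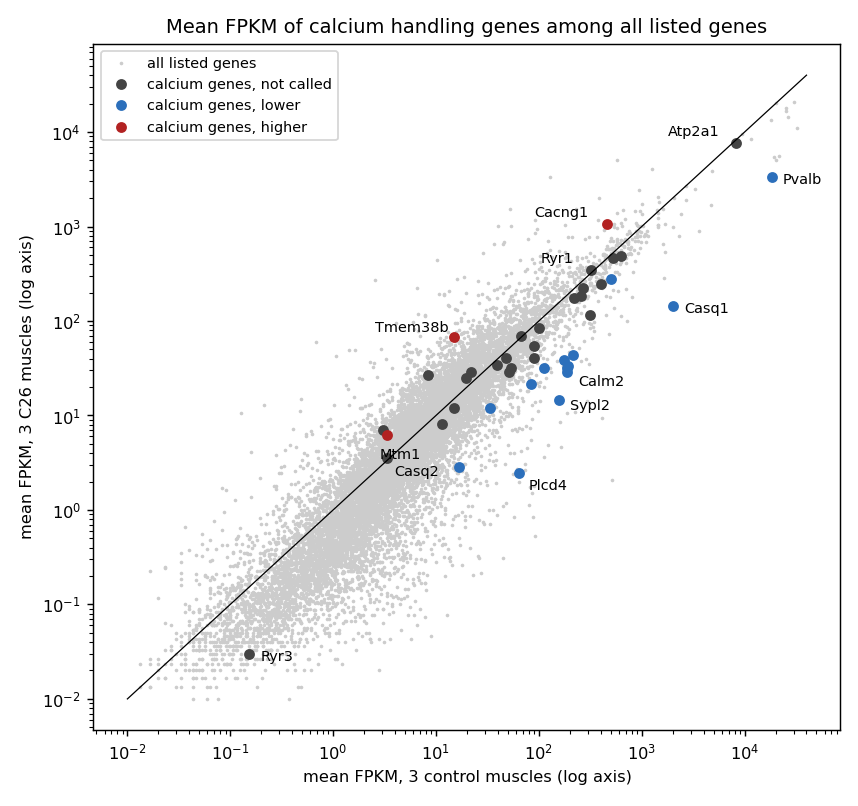
Mean FPKM of 3 C26 muscles against that of 3 control muscles on log axes, for all 13363 listed genes (grey) and the 42 calcium handling genes (dark grey, blue where lower, red where higher), with the line of equal FPKM. Casq1, Pvalb, Sypl2 and Plcd4 lie far below the line, Atp2a1 and Ryr1 lie near it, and Tmem38b and Cacng1 lie above it.

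Other genes of calcium handling, 79 in number, were listed by name from the same pathways, and 73 of them are in the table. Of these 11 were lower and 11 higher, or 15.1% each, against 14.5% and 19.4% of all genes, and their median log2 fold change was -0.15. The counts were 3 lower and 3 higher without control replicate 1, 4 and 3 without C26 replicate 1, 4 and 4 without C26 replicate 2, and 7 and 5 without control replicate 2. Scaled without the 20 most abundant genes they were 21 lower and 4 higher. Ank1 (gene ID 11733), whose short muscle forms anchor the reticulum to the sarcomere, had 32.7, 23.1 and 39.9 FPKM against 175, 187 and 166. It was lower by a log2 fold change of -2.26 (SE 0.26, limma adjusted p = 0.00352), and the call held with each muscle left out.

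Among the genes that rose, Mtmr14 (gene ID 97287), a lipid phosphatase related to Mtm1, had 70.1, 66.2 and 25.2 FPKM in the C26 muscles, against 11.9, 12.8 and 13.1 in the controls. It was higher by a log2 fold change of 2.12 (SE 0.37, limma adjusted p = 0.00894). Saraf (gene ID 67887), which turns store-operated entry off, had 279.8, 242 and 111 FPKM against 66.2, 67.2 and 48.3, a log2 fold change of 1.92 (SE 0.36, limma adjusted p = 0.0109). In both genes each C26 muscle was above each control and C26 replicate 3 was the nearest to them. Stim2, another sensor of the store, had 3.71 to 5.56 FPKM against 11.2 to 12.9 and a log2 fold change of -1.03 (SE 0.19, limma adjusted p = 0.010). The calls of Mtmr14, Saraf and Stim2 held with each muscle left out.

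The calls of the other named genes were lost when single muscles were left out. The sodium-calcium exchanger Slc8a3 had a log2 fold change of -1.75, Cav3, the caveolin of muscle, -1.37, and the kinase Camk1 -1.15. Each of them was called with all muscles (limma adjusted p = 0.0409, 0.0389 and 0.0368) and lost the call without any one muscle other than C26 replicate 3, with an adjusted p from limma of 0.0566 to 0.132, and with the replicate block. Sorcin (Sri), a calcium-binding modulator of the release channel, had -1.21 and lost the call without C26 replicate 1, C26 replicate 2 or control replicate 1 (limma adjusted p = 0.0611 to 0.0801). Mcur1, a regulator of the mitochondrial uniporter, had 1.12 and lost it without C26 replicate 1, C26 replicate 2, control replicate 1 or control replicate 3 (limma adjusted p = 0.0579 to 0.105), and in 3 of the 8 other alternatives, all of them other scalings.

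Markers of other cell types also differed between the groups. Fat cell markers summed to 255 to 392 FPKM in C26 muscles, against 542 to 4160 in control muscles, with 6 of 8 lower, and fibroblast markers to 160 to 201 against 358 to 427, with 4 of 7 lower. For endothelial cells 2 of 6 were lower and for Schwann cells 2 of 6, while 0 of 5 smooth muscle and 0 of 6 listed leukocyte markers were called. Leukocyte markers summed to 32.6 to 285 FPKM against 36.3 to 244, with Cd68 at 247 FPKM in C26 replicate 2, and Ptprc at 40.1 FPKM in control replicate 3 and at most 0.81 in the other muscles. The part of these cells in the calcium handling results was not tested.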

How the data were processed

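The authors filtered out low-quality, adaptor and rRNA reads, aligned the remaining single-end reads of 50 bases with Bowtie2 and obtained the deposited FPKM values with RSEM. The submitters' processing notes list Bowtie2 2.2.5, RSEM 1.2.12, HISAT2 2.0.4 and mm9, whereas the methods of the study name GRCm38.p5, so the only coordinates given are those of the RefSeq promoter windows, in GRCm38.p6. Values have 2 decimals, and all 13363 genes are above 0 in each of 6 samples.

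Samples were grouped by their titles. Symbols were matched to 13327 Entrez IDs through RefSeq (GRCm38.p6), and 36 IDs had none. FPKM were rescaled to TPM and divided by TMM factors (trimming 30% by log ratio and 5% by level), log2-transformed after adding 1 and compared by moderated tests in limma 3.58.1 (R 4.3.3), with Benjamini-Hochberg adjustment over all genes. The fit was tested on simulated data. Genes were called below an adjusted p of 0.05. Those that also changed by over 4-fold, the limit used in the study, were counted apart. Isoform shares were compared by two-sided exact permutation tests. The genes, lists, motifs and tests were chosen with earlier results of these data known. Named are all 42 genes and, of the other calcium handling genes, the 10 with the largest changes among those called, of which 1 is not reported here, with Ppp3cc added after its values were seen. Alternatives were the deposited FPKM without rescaling, TPM without TMM, quantile normalization, scaling that leaves out the 20 most abundant genes, a pseudocount of 0.1, a filter on mean TPM of 1, an intensity trend, a block for the replicate number, and the omission of each muscle. Figures were drawn with Python 3.11.15 and matplotlib 3.10.9.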

Additional observations from a re-analysis of the deposited data

How the results depend on the processing

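With FPKM as deposited, 1678 of all genes were higher, and of the other calcium handling genes 4 were higher and 18 lower. Quantile normalization left 0 of the 42 genes higher by over 4-fold and 4 of the other calcium handling genes higher. Scaling without the 20 most abundant genes gave 1544 genes higher and 3212 lower, 0 of the 42 higher by over 4-fold, and 4 of the other calcium handling genes higher with 21 lower. Leaving out each muscle gave 2 to 5 of the 42 genes higher and 8 to 21 lower, 1 to 2 higher and 6 to 11 lower by over 4-fold, 3 to 13 of the other calcium handling genes higher and 3 to 16 lower, and 1131 to 3311 of all genes higher and 669 to 2160 lower. The cause was not tested.

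With the replicate number as a block, 1236 of all genes were lower, and of the other calcium handling genes 7 were higher and 5 lower, while 13 of the 42 genes were lower and 3 higher. The numbers do not pair the muscles by any label. Deviations of same-numbered muscles from their group means had correlations of -0.039, -0.084 and -0.112. Other pairs of a C26 and a control muscle had -0.100 to 0.125.

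Only log2 fold changes of genes that were not called changed sign. With FPKM as deposited Stim1 had -0.20, Bin1 -0.19 and Atp2a1 -0.17. With quantile normalization Stim1 had -0.38, Bin1 -0.29, Jph1 -0.10 and Ryr1 -0.053. Without the 20 most abundant genes Stim1 had -0.29, Bin1 -0.28, Atp2a1 -0.26, Casq2 -0.041 and Jph1 -0.0039, and without TMM Camk2g had 0.010. Over the fits without 1 muscle the ranges were -0.36 to 0.032 for Tmem38a, -0.35 to 0.20 for Atp2a2, -0.24 to 0.054 for Cacna1s, -0.33 to 0.092 for Srl, -0.14 to 0.064 for Fkbp1a, -0.15 to 0.14 for Camk2g, -0.17 to 0.18 for Stim1, -0.056 to 0.24 for Bin1, -0.16 to 0.34 for Atp2a1 and -0.062 to 0.45 for Casq2. In percentage points of the pair, the C26 minus control share ranged from -0.81 to 1.91 for Ppp3cb and from -11.8 to 3.29 for Calm3. Without read counts, the precision of low genes such as Ryr3 is unknown.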
